A study of Mus musculus with 6 samples.

Results

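The genes described here are 54 genes that act in mitosis: the cyclins and kinases of mitotic entry, the chromosomal passenger complex and shugoshins, the spindle checkpoint, the anaphase machinery, the kinetochore, spindle motors, the cytokinesis apparatus, and the proteins that shape mitotic chromosomes. They were chosen by name for these roles, were matched to the deposited gene IDs through their symbols, and make up 54 of the 54752 rows of the count table. The table comes from total RNA sequencing of mouse embryonic fibroblasts of a line described as p53-deleted, in 2 groups of 3 libraries. The shARF group received a short hairpin RNA against p19ARF and the shNT group a negative control hairpin, both carried by lentivirus. Cells of both groups lack p53 by that description and grew in serum-containing medium, and every title bears the tag neo. ARF knockdown is the genotype given for shARF and WT that given for shNT. Since both sit beside a p53-deleted line, the text takes the line as the background of each. The titles call the replicates biological, but nothing says whether they came from separate infections, cultures or embryos. P-values here thus measure only how far these samples spread, and that spread may be technical.

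Mitosis begins when cyclin B bound to Cdk1 becomes active and Polo-like and Aurora kinases drive chromosome condensation and spindle assembly. Kinetochores, built on centromeric chromatin, attach chromosomes to spindle microtubules, and the spindle checkpoint holds back the anaphase-promoting complex until every chromosome is attached. That complex, a ubiquitin ligase, then marks securin and cyclin B for destruction, separase cuts cohesin, and the central spindle and an actomyosin ring divide the cell. Most genes of this program are transcribed late in the cell cycle, under the MuvB complex, B-Myb, FoxM1 and NF-Y, so in dividing fibroblasts their RNA levels rise and fall together through each cycle. ARF, the protein targeted here, is best known for binding Mdm2 and so stabilizing p53, which the cells of both groups lack.

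Total counts were 45.2 to 46.3 M in shARF libraries and 40.3 to 47 M in shNT libraries. Levels are given as CPM (counts per 1 M counts of the library, scaled by TMM factors, which correct for library composition), in the order of replicates 1, 2 and 3. The hairpin's target Cdkn2a (ENSMUSG00000044303.6) encodes p19ARF and p16INK4a from partly shared exons, and a count per gene does not separate them. Cdkn2a was at 95.6, 103 and 107 CPM in shARF and 231, 218 and 223 CPM in shNT. The groups did not overlap (log2 fold change -1.14, adjusted p = 2.52e-06, edgeR), and p was 0.1 in a two-sided exact permutation test, which cannot go lower with 3 libraries a group. The libraries also differed in genes that mark the sex of the cells. Xist averaged 45.7 ± 7.49 CPM in shARF and 387 ± 26.5 CPM in shNT (SD, n = 3 each), while Y-linked genes were higher, Kdm5d at 19.5 ± 0.623 CPM in shARF and 0.782 ± 0.216 CPM in shNT, Ddx3y at 85.3 ± 4.19 CPM in shARF and 24.4 ± 1.6 CPM in shNT, Eif2s3y at 38.3 ± 1.49 CPM in shARF and 12.8 ± 0.693 CPM in shNT and Uty at 21.7 ± 0.601 CPM in shARF and 9.61 ± 0.482 CPM in shNT. The part of this difference in the results below was not tested, and a difference between the cultures cannot be told apart from the hairpin. All 10 fibroblast markers reached a mean of 1 CPM in at least 1 group, with summed levels of 24258 to 24529 CPM in shARF and 20994 to 22621 CPM in shNT. In log2 fold change 5 of them were called higher in shARF (Col1a1 0.39, Col1a2 0.12, Col3a1 0.27, Thy1 0.37 and Vim 0.11), Pdgfra (-2.46) and Dcn (-2.12) were called lower, and 3 did not pass. Of 5 endothelial markers 3 were under 1 CPM in both groups (summed 2.81 to 3.62 CPM in shARF, 2.40 to 2.99 CPM in shNT). The other two differed in opposite directions, Kdr being higher, at 3.13 ± 0.37 CPM in shARF and 0.282 ± 0.0347 CPM in shNT (3.47), and Tek lower, at 0.067 ± 0.0591 CPM in shARF and 2.16 ± 0.134 CPM in shNT (-4.94). Of 5 epithelial markers 3 were under 1 CPM (summed 5.26 to 5.68 CPM in shARF, 15.3 to 17.5 CPM in shNT), with Cdh1 called higher (1.17) and Krt18 lower (-6.38). Of 5 haematopoietic markers 2 were under 1 CPM, with Cd34 as most of the sum (127 to 132 CPM in shARF, 179 to 180 CPM in shNT), and 3 were called lower (Cd34 -0.43, Cd68 -0.88, Csf1r -3.72). Of 5 neural markers 2 were, the others being cytoskeletal genes, all 3 called higher (263 to 287 CPM in shARF, 202 to 209 CPM in shNT). Cdh5, Adgre1, Sox2 and Sox10, which define endothelial, macrophage, neural stem and neural crest cells, had a count of 0 in every library. The part of these marker differences in the results below was not tested.

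All 54 mitosis genes were expressed in both groups and passed the filter on low counts, with mean levels over the 6 libraries of 19.6 (Spc24) to 693 CPM (Mki67). In edgeR's quasi-likelihood test, with Benjamini-Hochberg adjustment over all 17128 genes tested and a threshold of 0.05, 14 of them were higher in shARF, 17 were lower and 23 did not pass. The background was 28.8% of all genes higher and 27.7% lower, 56.4% in either direction, beside 57.4% of the mitosis genes. Among the 7982 genes expressed at or above the lowest of the mitosis genes, 67.8% were called, 38.4% higher and 29.4% lower. These shares were not tested against each other. The CPM of shARF and shNT did not overlap for 38 of the 54 (70.4%), against 64.6% of all genes and 74.0% of the 7982. In that test calls in both directions were found within each of the 8 roles. With library sizes alone no anaphase, kinetochore or spindle gene was called higher, and without shARF replicate 1 no anaphase or kinetochore gene was. The higher call at the kinetochore rests on Spc24. That call was also lost with no filter on low counts, with a block on replicate number and after centring on the chromosomal window. Without shARF replicate 3, shNT replicate 1 or shNT replicate 2 it was lost too. The median log2 fold change of the 54 was -0.044, beside -0.008 for all genes and 0.046 for the 7982. With library sizes alone as the scaling, the split was 6 higher and 29 lower, with a background of 23.5% higher and 34.3% lower. Summed over all 54 genes, the level was 7243, 7229.6 and 7173 CPM in shARF and 7462, 7319.8 and 7199.9 CPM in shNT. These sums overlap and their means differ by -1.53%. In bulk RNA, fewer cells in mitosis and less RNA per mitotic cell cannot be told apart.

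**Figure D1:**
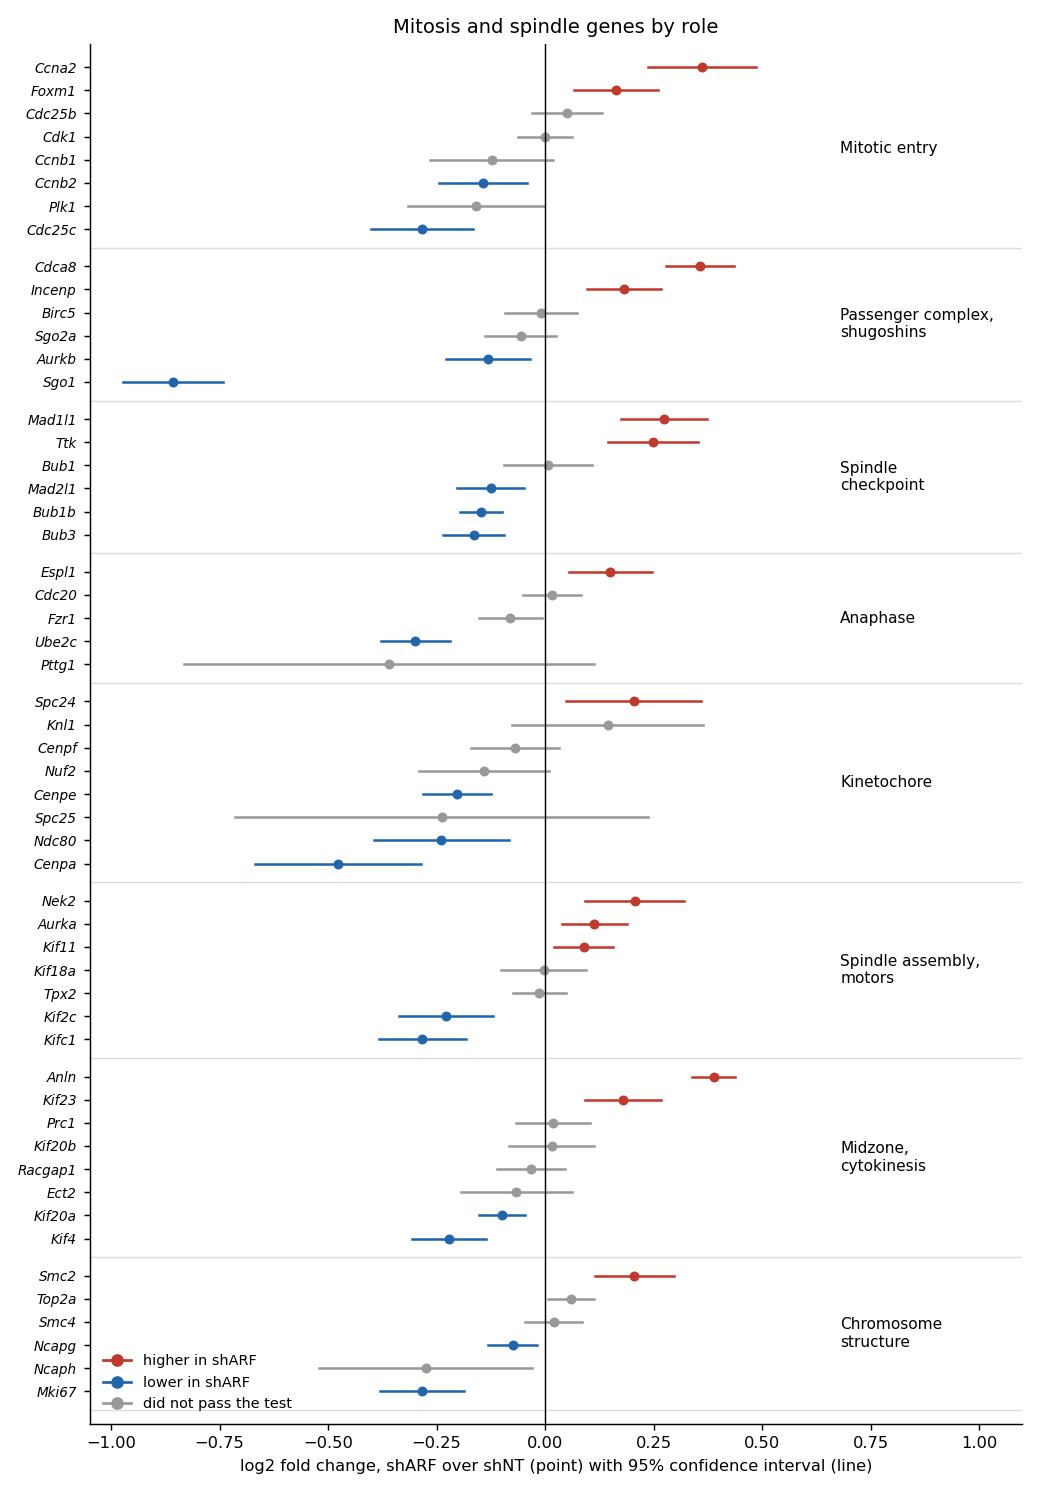
Log2 fold change of each of the 54 mitosis genes, shARF over shNT (points), with its 95% confidence interval from edgeR (lines), grouped by role from mitotic entry at the top to chromosome structure at the bottom. Red marks the 14 genes higher in shARF, blue the 17 lower and grey the 23 that did not pass the test, and Sgo1 lies apart from the others at -0.86. With library sizes alone as the scaling, 6 are higher and 29 lower.

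The changes were small. The median absolute log2 fold change was 0.15, beside 0.34 for all genes and 0.25 for the 7982 genes expressed at or above the lowest of the mitosis genes. No mitosis gene differed by 2-fold, whereas 15.7% of all genes and 6.18% of the 7982 genes did. Sgo1 alone exceeded 1.5-fold, a size reached by 30.0% of all genes and 17.8% of the 7982. A size of 1.25-fold was exceeded by 6 mitosis genes, among them Pttg1, which did not pass the test, and reached by 51.7% of all genes and 40.2% of the 7982. For 36 of the 54 genes the 95% confidence interval of the fold change lay within 1.25-fold in either direction, including 19 of the 23 that did not pass the test. Such an interval was found for 3805 of all 17128 genes tested and for 3179 of the 7982. Replicates were close together, with a median coefficient of variation of 2.38% in shARF and 3.22% in shNT.

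**Figure D2:**
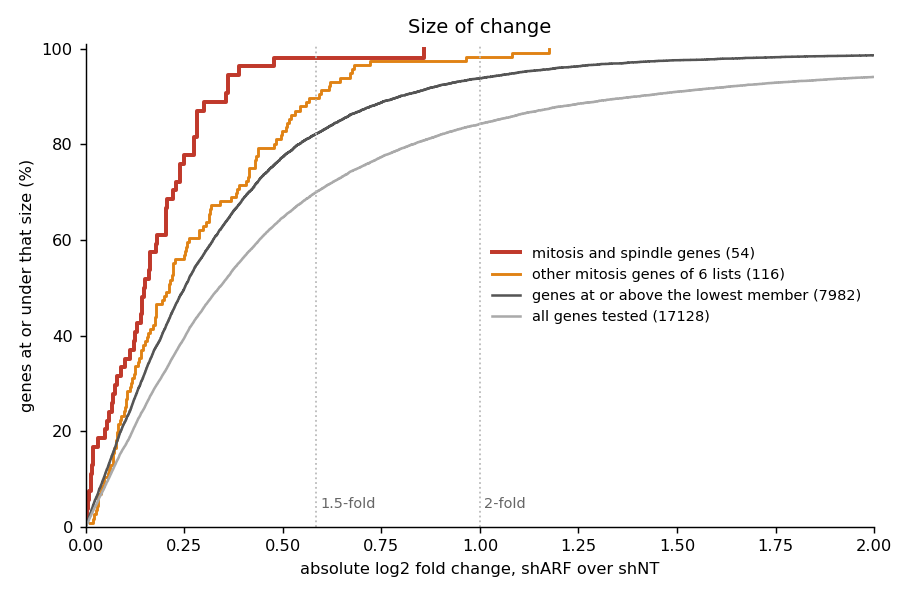
Cumulative share of genes (vertical axis, %) at or under each absolute log2 fold change of shARF over shNT (horizontal axis), for the 54 mitosis genes, 116 other mitosis genes, the 7982 genes at or above the lowest of the 54, and all 17128 genes tested. Dotted lines mark 1.5-fold and 2-fold, and the curve of the 54 genes lies left of the others and reaches 100% before the 2-fold line.

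Whole stretches of some chromosomes were higher or lower in shARF, and the mitosis genes sit in such stretches to different degrees. Median log2 fold changes per chromosome ranged from -0.27 (chromosome 8) to 0.27 (chromosome 12) among the autosomes, neither of which holds a mitosis gene of the 54. Of the 5 on chromosome 9, whose median was 0.13, 4 rose (Anln, Kif23, Ttk, Spc24) and 1 fell (Ccnb2). All 3 on chromosome 17, whose median was -0.14, fell (Sgo1, Kifc1, Ndc80). The share of all genes called on each of these chromosomes was not counted, so these counts have no background beside them. The median of the 10 Mb window that holds each gene ranged from -0.26 (Kif4) to 0.31 (Kif11 and Kif20b, chromosome 19).

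When the median of its window was subtracted from each gene's fold change within the fit (centring, below), 10 of the 54 genes were higher and 15 lower, with a background of 28.1% and 25.7% of all genes. Of the 31 genes called, 19 kept their call and its direction, 11 lost it and Kif11 was called the other way. The larger changes were reduced but remained: Sgo1 was at -0.77, Cenpa at -0.42, Ube2c at -0.29, Ccna2 at 0.27, Anln at 0.23 and Cdca8 at 0.15. For Kif2c, in a window with a median of 0.16, the fall was larger after centring (-0.38). The 14 alternatives are these scalings, other tools and filters, a replicate block and each library left out in turn. In every 1 of them, 13 of the 31 genes were called in the same direction: Ccna2, Cdca8, Mad1l1 and Anln higher, and Cdc25c, Sgo1, Bub1b, Ube2c, Cenpa, Cenpe, Kif2c, Kifc1 and Mki67 lower.

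**Figure D3:**
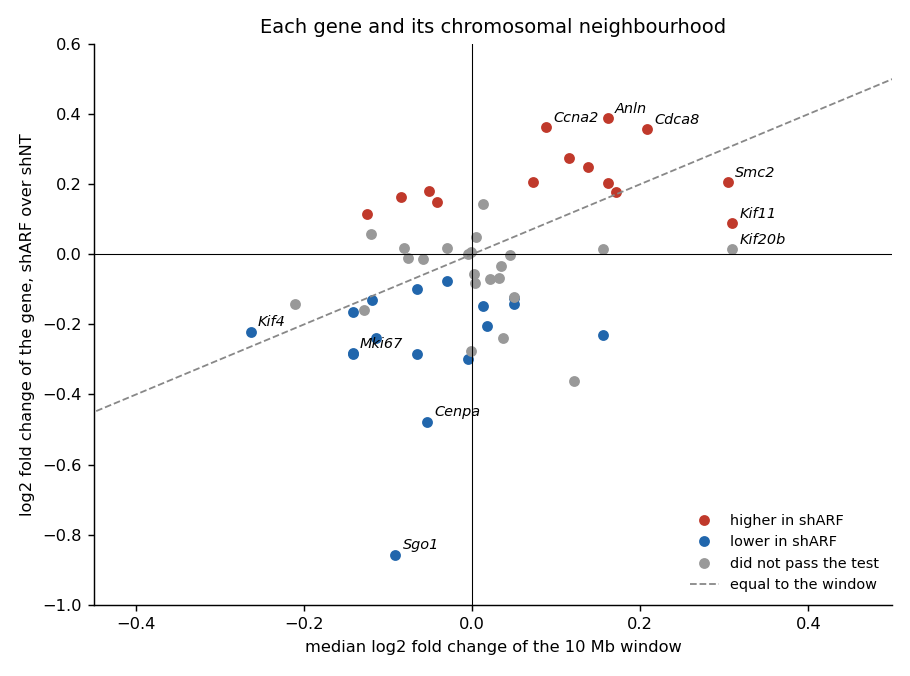
Log2 fold change of each of the 54 mitosis genes, shARF over shNT (vertical axis), against the median log2 fold change of the tested genes in its 10 Mb window (horizontal axis), with the line of equal values dashed and the outcome of the test in colour. Sgo1, Cenpa, Ccna2, Anln and Cdca8 lie off the line on the side of their change, whereas Kif11 and Kif20b, in windows at 0.31, lie under it.

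Promoter sequences are shown for 6 genes. Of these, 3 had the largest falls among the genes called lower (Sgo1, Cenpa, Ube2c). Another 2 had the largest rises among those with an entry in the promoter table used (Anln, Cdca8). The last is Cdk1, whose level differed least. The sequences are shown because genes with opposite outcomes can be compared by the same motifs. Each runs 5′ to 3′ on the gene's strand from 120 bases before to 28 bases after the RefSeq start site on GRCm38.p6. Capitals mark TTTGAA, the core of the cell cycle genes homology region (CHR) at which MuvB complexes bind, and CCAAT, the box bound by NF-Y. Matches on the opposite strand read TTCAAA and ATTGG. In Cdca8 a TTTGAA and an ATTGG overlap and form a single run of capitals. The windows lie at chr17:53689288-53689435 on the minus strand (Sgo1), chr5:30666766-30666913 on the plus strand (Cenpa), chr2:164769809-164769956 on the plus strand (Ube2c), chr9:22389179-22389326 on the minus strand (Anln), chr4:124936890-124937037 on the minus strand (Cdca8) and chr10:69352885-69353032 on the minus strand (Cdk1).
Sgo1: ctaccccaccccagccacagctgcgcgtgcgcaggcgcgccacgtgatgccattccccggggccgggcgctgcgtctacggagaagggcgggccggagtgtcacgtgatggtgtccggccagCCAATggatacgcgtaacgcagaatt
Cenpa: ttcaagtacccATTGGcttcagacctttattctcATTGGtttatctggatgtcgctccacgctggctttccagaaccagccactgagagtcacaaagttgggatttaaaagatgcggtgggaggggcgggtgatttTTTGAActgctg
Ube2c: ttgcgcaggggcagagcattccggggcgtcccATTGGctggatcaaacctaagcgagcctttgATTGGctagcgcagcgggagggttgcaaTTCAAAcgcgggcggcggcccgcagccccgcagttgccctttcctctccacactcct
Anln: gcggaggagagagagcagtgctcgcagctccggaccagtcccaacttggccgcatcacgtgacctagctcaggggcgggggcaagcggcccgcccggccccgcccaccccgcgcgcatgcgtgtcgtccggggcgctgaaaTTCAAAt
Cdca8: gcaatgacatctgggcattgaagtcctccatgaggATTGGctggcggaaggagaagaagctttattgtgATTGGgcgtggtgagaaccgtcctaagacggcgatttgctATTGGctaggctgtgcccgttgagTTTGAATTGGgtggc
Cdk1: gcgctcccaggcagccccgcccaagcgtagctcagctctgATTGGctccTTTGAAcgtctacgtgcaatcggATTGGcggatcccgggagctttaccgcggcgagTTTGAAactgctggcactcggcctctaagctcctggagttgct

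The printed promoters of a gene that fell (Ube2c), one that rose (Cdca8) and one that hardly differed (Cdk1) hold both motifs, and that of Sgo1 holds 1 CCAAT and no TTTGAA. RefSeq promoters, 250 bases before to 50 after the start, were in the table for 45 of the 54 genes. TTTGAA on either strand was found in those of 30 genes (66.7%), against 20.2% of all 27025 genes in the table and 14.4% of the 10750 that were tested. CCAAT on either strand was found in 33 (73.3%), against 41.1% of all and 43.2% of tested genes. Both motifs stood in the promoters of 25 genes (55.6%), against 7.97% of all and 6.07% of tested genes. By 50-base bins, TTTGAA was most often just after the start site, in bases 1 to 50 of 20 of the 50 promoters of these genes, and of 2.25% of all 32851 promoters. Next were bases -50 to -1, with a match in 10 of the 50 and in 2.82% of all promoters. CCAAT lay mostly between bases -100 and -1. For 35 of the 50 promoters the first 20 bases after the start site were found near the start of a GENCODE transcript of the same gene. The start sites of the others were not matched in this way, which limits the positions given. By the outcome of the test, TTTGAA was in 8 of the 10 promoter-matched genes that rose, 11 of the 14 that fell and 11 of the 21 that did not pass, and CCAAT in 8 of 10, 11 of 14 and 14 of 21. A match is a description of the letters, not a binding site, and no binding was measured. Aurkb, Ccna2, Cdc25c, Foxm1, Incenp, Kif20a, Smc4, Spc24 and Tpx2 had no entry.

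**Figure D4:**
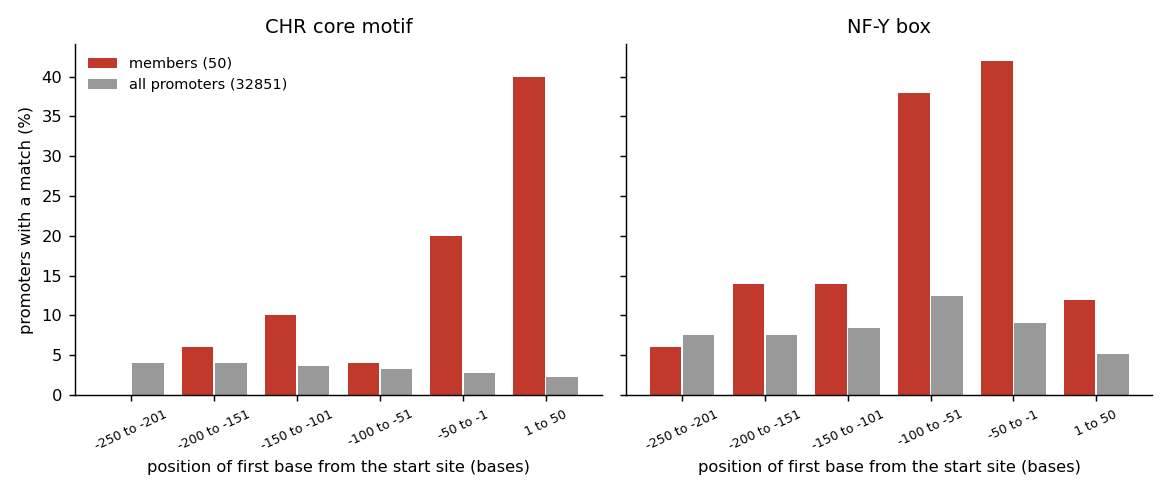
Share of promoters (vertical axis, %) with a match to the CHR core motif (left) or the NF-Y box (right) whose first base falls in each 50-base bin from the start site (horizontal axis), for the 50 promoters of the mitosis genes (red) and all 32851 promoters (grey). In bases 1 to 50 the CHR core is in 20 of the 50 mitosis gene promoters and 2.25% of all promoters.

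Among the 8 genes of mitotic entry, 2 rose (Ccna2, Foxm1), 2 fell (Cdc25c, Ccnb2) and 4 did not pass. Ccna2 (GRCm38 chromosome 3, 36564865 to 36572150, minus strand), which encodes cyclin A2 and drives S phase and early mitosis, was at 269.5, 249 and 271 CPM in shARF and 211, 213 and 191 CPM in shNT. Every shARF library lay above every shNT library, and Ccna2 rose by 28.5% (log2 fold change 0.36, SE 0.052, adjusted p = 9.84e-04), the second largest rise of the 54. Its exons overlap those of Exosc9 on the other strand (at most 40.04 CPM in either group, log2 fold change 0.22), and the sources used here do not give the strand that was counted. Foxm1, the forkhead factor that activates many genes of this program, was at 131, 132 and 126 CPM in shARF and 119, 119 and 109.7 CPM in shNT, without overlap (0.16, SE 0.041, adjusted p = 0.0126). Cdc25c, a phosphatase that activates Cdk1, was among the least abundant of these genes, at 23.7, 24.7 and 22.4 CPM in shARF and 28.5, 28.5 and 29.2 CPM in shNT. Its groups did not overlap and it fell (-0.28, SE 0.049, adjusted p = 0.00251). Ccnb2, which encodes cyclin B2, averaged 74.9 ± 2.78 CPM in shARF and 82.7 ± 2.81 CPM in shNT (-0.14, adjusted p = 0.0252).

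The Cdk1 kinase itself (GRCm38 chromosome 10, 69335146 to 69352938, minus strand) was at 144, 141 and 146 CPM in shARF and 141, 143 and 146 CPM in shNT. Its groups overlap almost fully, its log2 fold change was -0.00031 with a 95% confidence interval of -0.062 to 0.062 (adjusted p = 0.992), and its sign depends on the setting. Its printed promoter holds 2 TTTGAA and 2 CCAAT. Ccnb1, which encodes the main mitotic cyclin, was at 114, 102 and 105 CPM in shARF and 112, 113 and 125 CPM in shNT, which overlap (-0.12, adjusted p = 0.123). Pseudogenes of Ccnb1 and Ccnb2 may share reads with them. Plk1, the Polo-like kinase, averaged 105 ± 3.94 CPM in shARF and 118 ± 10.5 CPM in shNT, without overlap but not past the test (-0.16, adjusted p = 0.0767). Cdc25b, another Cdk1-activating phosphatase, averaged 68.6 ± 1.71 CPM in shARF and 66.3 ± 0.932 CPM in shNT, likewise without overlap and not past the test (0.051, adjusted p = 0.251). The call of Ccnb2 was lost without shARF replicate 2 (-0.11) or 3 (-0.14) and without shNT replicate 2 (-0.14) or 3 (-0.13), and Plk1 was called lower without shNT replicate 2 (-0.20). Scaled by library sizes alone, Foxm1 was not called (0.073), and Ccnb1 (-0.21), Cdk1 (-0.09) and Plk1 (-0.25) were called lower. Plk1 was also called lower by DESeq2 (-0.16), and Ccnb1 after centring on its window (-0.17).

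The chromosomal passenger complex, in which Aurora B kinase works with Incenp, survivin and borealin to correct wrong attachments, held members of each outcome. Cdca8, which encodes borealin (GRCm38 chromosome 4, 124918465 to 124939311, minus strand), was at 74.8, 71.7 and 74.1 CPM in shARF and 58, 57.4 and 56.9 CPM in shNT, and rose by 28% without overlap (0.36, SE 0.033, adjusted p = 1.15e-04). Its promoter as printed holds 4 matches to CCAAT and 1 to TTTGAA. That window, around the RefSeq start site, lies wholly inside the gene span given above and not at its outer end. Incenp, the scaffold of the complex, was at 145, 141 and 140.4 CPM in shARF and 131, 123 and 121 CPM in shNT, also without overlap (0.18, SE 0.036, adjusted p = 0.0045). Aurkb, its kinase, was lower, with means of 51.6 ± 1.3 CPM in shARF and 56.5 ± 1.76 CPM in shNT (-0.13, adjusted p = 0.0294). Birc5, which encodes survivin, averaged 76.2 ± 2.08 CPM in shARF and 76.8 ± 1.52 CPM in shNT (-0.01, adjusted p = 0.829), with an interval of -0.094 to 0.073.

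The largest change among the 54 genes was that of Sgo1 (ENSMUSG00000023940.14; GRCm38 chromosome 17, 53674786 to 53689333, minus strand), which encodes shugoshin 1, the protector of centromeric cohesin until anaphase. Its printed promoter holds no TTTGAA. Sgo1 was at 27.4, 28.9 and 30.5 CPM in shARF and 52.9, 52.6 and 51.8 CPM in shNT. The highest shARF library lay well under the lowest shNT library. The means were 28.9 ± 1.53 CPM in shARF and 52.4 ± 0.586 CPM in shNT (SD, n = 3 each), and Sgo1 fell by 44.8% (95% confidence interval of the change -49.1 to -40.2%, log2 fold change -0.86, SE 0.049, adjusted p = 1.10e-05). Sgo1 remained lower in all 14 alternatives, at -0.77 after centring on its chromosomal window and -0.95 with library sizes alone. Its paralog Sgo2a, which protects cohesin chiefly in meiosis in mice, averaged 58.9 ± 0.306 CPM in shARF and 61.2 ± 1.53 CPM in shNT, without overlap but not past the test (-0.056, adjusted p = 0.211). The call of Aurkb was lost without any 1 shARF library (-0.14, -0.14 and -0.11 without replicates 1, 2 and 3) and without shNT replicate 3 (-0.11), and after centring on the window (-0.012). With library sizes alone the call of Incenp was lost (0.091), and Birc5 (-0.10) and Sgo2a (-0.15) were called lower.

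**Figure D5:**
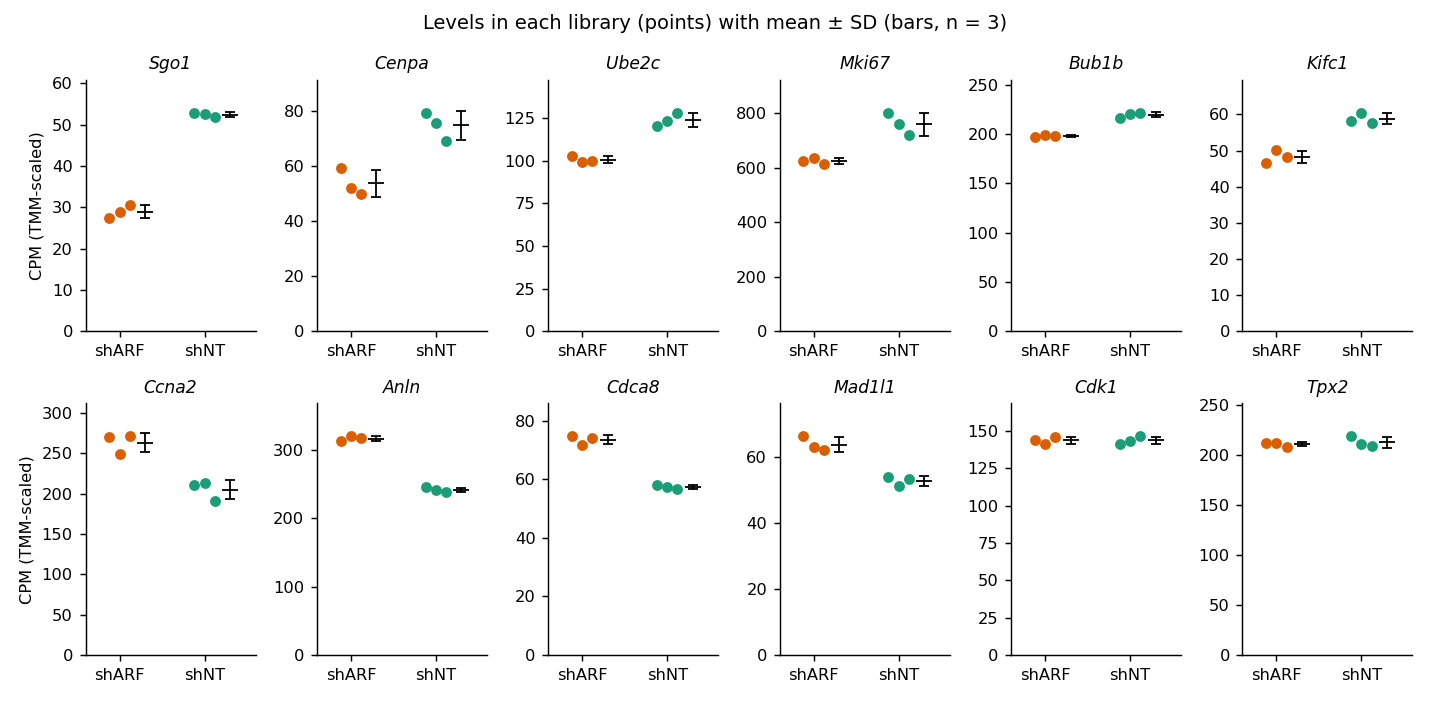
TMM-scaled CPM (vertical axis, from 0) of 12 mitosis genes in each of the 3 shARF and 3 shNT libraries (points), with the mean and SD beside them (bars, n = 3). Sgo1, Cenpa, Ube2c, Mki67, Bub1b and Kifc1 are lower in shARF and Ccna2, Anln, Cdca8 and Mad1l1 higher, all without overlap, while Cdk1 and Tpx2 overlap.

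Spindle checkpoint genes moved in both directions, with 3 lower (Bub1b, Bub3, Mad2l1), 2 higher (Mad1l1, Ttk) and Bub1 not passing the test. Bub1b, which encodes BubR1, a part of the complex that inhibits Cdc20, was at 197, 199 and 198 CPM in shARF and 217, 221 and 222 CPM in shNT. The replicates were within a few CPM of each other and the groups far apart by that measure (-0.15, SE 0.02, adjusted p = 7.91e-04), and Bub1b fell by 9.79%. Mad1l1, which brings Mad2 to unattached kinetochores, was at 66.2, 62.9 and 62 CPM in shARF and 53.8, 51.1 and 53.3 CPM in shNT, without overlap (0.27, SE 0.042, adjusted p = 0.00129). Ttk, the Mps1 kinase that starts checkpoint signalling, was at 54.4, 51.1 and 51.8 CPM in shARF and 45.7, 43.6 and 43 CPM in shNT, also without overlap (0.25, SE 0.044, adjusted p = 0.00258).

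Bub3, the binding partner of Bub1 and BubR1, averaged 87.4 ± 1.87 CPM in shARF and 98 ± 1.14 CPM in shNT (-0.16, adjusted p = 0.00287). Mad2l1, which encodes Mad2, averaged 104 ± 2.86 CPM in shARF and 113 ± 2.46 CPM in shNT (-0.13, adjusted p = 0.0144). Mad2l1 thus fell while Mad1l1, which encodes its partner, rose. Bub1, the kinase that marks centromeric chromatin, averaged 99.1 ± 3.03 CPM in shARF and 98.6 ± 4.35 CPM in shNT (0.0071, adjusted p = 0.9). Summed over the 6 genes, the level was 603, 607 and 604 CPM in shARF and 630.1, 627 and 621 CPM in shNT, groups that do not overlap and differ by -3.46%. The call of Mad2l1 was lost without shARF replicate 1 (-0.10) or shNT replicate 2 (-0.12). After centring on the window those of Bub3 (-0.022) and Ttk (0.11) were lost.

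Of the 5 anaphase genes, Ube2c fell, Espl1 rose and 3 did not pass. Ube2c (GRCm38 chromosome 2, 164769898 to 164778822, plus strand), the ubiquitin-conjugating enzyme that works with the anaphase-promoting complex, was at 103, 99.5 and 99.6 CPM in shARF and 120.3, 123 and 128 CPM in shNT. The groups were well apart and Ube2c fell by 18.7% (-0.30, SE 0.033, adjusted p = 2.81e-04). Espl1, which encodes separase, the protease that cuts cohesin, was at 141, 138 and 137 CPM in shARF and 128, 118 and 129 CPM in shNT, without overlap (0.15, SE 0.04, adjusted p = 0.0166).

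The activators of the complex did not pass the test with TMM scaling, though both were called lower in some alternatives. Cdc20, which activates it in mitosis, was at 136, 138 and 133 CPM in shARF and 131, 136 and 135 CPM in shNT, which overlap (0.016, adjusted p = 0.656, interval -0.051 to 0.083). Fzr1, which encodes Cdh1 and takes over at mitotic exit, was at 76.7, 74.9 and 76 CPM in shARF and 78.8, 80.3 and 81.6 CPM in shNT, slightly apart but not past the test (-0.081, adjusted p = 0.0588). Both overlap exons of a gene on the other strand, Elovl1 (57.0 CPM at most, log2 fold change 0.43) for Cdc20 and Mfsd12 (17.6 CPM at most, -0.56) for Fzr1. Pttg1, which encodes securin, was at 24.5, 25.8 and 24.5 CPM in shARF and 22, 34.3 and 39.7 CPM in shNT, which overlap (-0.36, adjusted p = 0.166). In Pttg1 shNT replicate 1 lay under all shARF libraries and the other two shNT libraries above them, and without that library it was called lower (-0.57). The call of Espl1 was lost without shARF replicate 1 (0.14) and with library sizes alone (0.06), and Cdc20 was called lower after centring on its window (-0.14). Fzr1 was called lower with library sizes alone (-0.17), with genes needing 1 CPM in 3 libraries (-0.091) and in limma-voom (-0.080).

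At the kinetochore, 3 of 8 genes fell (Cenpa, Cenpe, Ndc80), 1 rose (Spc24) and 4 did not pass. Cenpa (GRCm38 chromosome 5, 30666777 to 30674830, plus strand), the histone H3 variant that marks centromeres, was at 59.3, 51.9 and 49.9 CPM in shARF and 79.4, 75.7 and 69.1 CPM in shNT. The lowest shNT library lay above the highest shARF library, and Cenpa fell by 28.2% (-0.48, SE 0.08, adjusted p = 0.00209), the second largest fall of the 54. Cenpe, a kinesin that carries chromosomes to the spindle equator and the most abundant of the kinetochore genes, was at 233, 239 and 232 CPM in shARF and 281, 270.4 and 259.8 CPM in shNT, without overlap (-0.20, SE 0.033, adjusted p = 0.00174).

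The 4 genes of the Ndc80 complex, which grips the microtubule, had different outcomes in the test. Ndc80 was at 63, 57.2 and 61.9 CPM in shARF and 75.1, 74.2 and 65.5 CPM in shNT, a fall with little room between the groups (-0.24, SE 0.066, adjusted p = 0.0185). Its partner Nuf2 averaged 59.8 ± 1.18 CPM in shARF and 65.9 ± 5.6 CPM in shNT, without overlap but not past the test (-0.14, adjusted p = 0.0982). Spc24 was higher, at 21 ± 0.54 CPM in shARF and 18.2 ± 1.37 CPM in shNT (0.20, adjusted p = 0.0341). Spc25 did not pass, at 19.7, 20.3 and 22.7 CPM in shARF and 21.8, 19.1 and 33.2 CPM in shNT (-0.24, adjusted p = 0.348). In Spc25 shNT replicate 3 lay above all the other libraries, which overlap, and without it the log2 fold change was 0.027. Cenpf, a large coiled-coil protein of the outer kinetochore, averaged 164 ± 2.73 CPM in shARF and 172 ± 9.52 CPM in shNT (-0.07, adjusted p = 0.205). Knl1, the platform for Bub1 and BubR1, averaged 107 ± 12.2 CPM in shARF and 96.7 ± 7.04 CPM in shNT (0.14, adjusted p = 0.228).

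Summed over the 8 kinetochore genes, the level was 736, 708 and 721 CPM in shARF and 818, 789 and 776 CPM in shNT, a difference of -9.16% without overlap, the widest among the 8 roles. The sums of mitotic entry (4.55%) and of the midzone and cytokinesis (3.97%) were higher in shARF, also without overlap. That of the checkpoint was lower (-3.46%), as above. The sums of the passenger complex and shugoshins, anaphase, spindle and chromosome structure genes overlapped between groups. The call of Ndc80 was lost without shARF replicate 2 (-0.20), shNT replicate 1 (-0.21) or shNT replicate 2 (-0.21). That of Spc24 was lost without any 1 library except shNT replicate 3, at 0.19, 0.22 and 0.21 without shARF replicates 1, 2 and 3 and 0.15 and 0.20 without shNT replicates 1 and 2. Cenpf was called lower without shNT replicate 3 (-0.11) and Knl1 higher without shARF replicate 2 (0.24). After centring on the window Ndc80 (-0.12) and Spc24 (0.042) were not called and Nuf2 was at 0.07. Spc24 was not called with no filter on low counts (0.21), with a block on replicate number (0.21) or with library sizes alone (0.11). With library sizes alone Nuf2 (-0.23) and Cenpf (-0.16) were called lower.

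Spindle assembly genes and motors had 3 of 7 higher (Aurka, Nek2, Kif11) and 2 lower (Kifc1, Kif2c). Kifc1 (GRCm38 chromosome 17, 33875659 to 33890661, minus strand), a minus-end kinesin that bundles spindle microtubules and clusters extra centrosomes, was at 46.6, 50.02 and 48.3 CPM in shARF and 58.1, 60.5 and 57.6 CPM in shNT, without overlap (-0.28, SE 0.042, adjusted p = 0.0012). Kif2c, which encodes MCAK, a kinesin that takes microtubules apart at centromeres, was at 63.8, 63.3 and 58.1 CPM in shARF and 72.9, 73.2 and 71.1 CPM in shNT, also without overlap (-0.23, SE 0.045, adjusted p = 0.00451). Nek2, a centrosomal kinase that separates the spindle poles, was higher, at 50.8, 56.6 and 54.3 CPM in shARF and 47, 46.3 and 46.9 CPM in shNT (0.21, SE 0.048, adjusted p = 0.00894).

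Aurka, the Aurora kinase of the spindle poles, averaged 84.6 ± 1.91 CPM in shARF and 78.2 ± 0.849 CPM in shNT (0.11, adjusted p = 0.0185). Its activator Tpx2 was at 212, 213 and 208 CPM in shARF and 219, 211 and 209 CPM in shNT. The groups of Tpx2 overlap (-0.014, adjusted p = 0.679), with an interval of -0.075 to 0.047. Kif11, the plus-end kinesin that pushes the poles apart, averaged 194 ± 2.34 CPM in shARF and 183 ± 5.61 CPM in shNT (0.089, adjusted p = 0.0343). Kif18a, which limits chromosome oscillation, averaged 49.1 ± 1.79 CPM in shARF and 49.2 ± 0.72 CPM in shNT (-0.0032, adjusted p = 0.953). The call of Kif11 was lost without any 1 library except shNT replicate 1 (0.10, 0.081 and 0.10 without shARF replicates 1, 2 and 3, 0.086 and 0.064 without shNT replicates 2 and 3). After centring on its window Kif11 was called lower (-0.22), and it was not called by DESeq2 (0.089) or with library sizes alone (-0.0014). Tpx2 was called lower with library sizes alone (-0.10). The call of Aurka was lost without shARF replicate 1 (0.11) or 2 (0.10), without shNT replicate 2 (0.11) or 3 (0.10), and with library sizes alone (0.024). That of Nek2 was lost with library sizes alone (0.12) and after centring (0.13).

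Among the 8 genes of the midzone and cytokinesis, 2 rose (Anln, Kif23), 2 fell (Kif4, Kif20a) and 4 did not pass. Anln (ENSMUSG00000036777.8; GRCm38 chromosome 9, 22332012 to 22389188, minus strand), which encodes anillin, the scaffold of the contractile ring, was at 313, 320.3 and 317 CPM in shARF and 245, 242 and 239 CPM in shNT. These replicates were tight and far apart between groups, and Anln had the largest rise of the 54, by 30.9% (95% confidence interval of the change 26.5 to 35.4%, 0.39, SE 0.021, adjusted p = 8.31e-06). Kif23, the motor subunit of centralspindlin, was at 136, 134 and 131 CPM in shARF and 122, 121 and 113 CPM in shNT, without overlap (0.18, SE 0.037, adjusted p = 0.0052). Kif4, an X-linked kinesin of the midzone that binds Prc1, was at 93.1, 92.1 and 93.1 CPM in shARF and 112, 109 and 103 CPM in shNT, a fall without overlap (-0.22, SE 0.036, adjusted p = 0.0017). Kif4 lies on the X chromosome, where the median over 587 genes tested was -0.14, in libraries that differ in Xist as above. Its exons overlap Pdzd11 on the other strand (34.4 CPM at most, log2 fold change -0.15), and a Kif4 pseudogene may share its reads.

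Kif20a, which carries the passenger complex to the midzone, averaged 231 ± 3.81 CPM in shARF and 247 ± 3.17 CPM in shNT (-0.10, adjusted p = 0.00819), and overlaps Cdc23 on the other strand (103 CPM at most, 0.08). Racgap1, the partner of Kif23 in centralspindlin, averaged 220.1 ± 2.33 CPM in shARF and 225 ± 9.37 CPM in shNT (-0.032, adjusted p = 0.445). Ect2, the exchange factor that turns on RhoA at the equator, averaged 113 ± 3.96 CPM in shARF and 119 ± 7.95 CPM in shNT (-0.067, adjusted p = 0.329). Prc1, which bundles midzone microtubules, averaged 109 ± 1.75 CPM in shARF and 108 ± 4.21 CPM in shNT (0.018, adjusted p = 0.703). The kinesin Kif20b averaged 118 ± 2.39 CPM in shARF and 116 ± 5.6 CPM in shNT (0.015, adjusted p = 0.783). For these last 4 genes the 95% confidence interval of the fold change lay within 1.25-fold. After centring on the window the calls of Kif4 (0.043), Kif20a (-0.033) and Kif23 (0.0079) were lost and Kif20b was called lower (-0.29). With library sizes alone Kif23 was not called (0.089), and Racgap1 (-0.12) and Ect2 (-0.16) were called lower.

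Of the 6 genes of chromosome structure, Smc2 rose, Mki67 and Ncapg fell and 3 did not pass. Mki67 (GRCm38 chromosome 7, 135689784 to 135716361, minus strand), which encodes Ki-67, the proliferation marker that coats mitotic chromosomes, was at 626, 636 and 614 CPM in shARF and 804, 759.8 and 719 CPM in shNT. The groups did not overlap and Mki67 fell by 17.8% (-0.28, SE 0.04, adjusted p = 9.42e-04). The condensin subunits had different outcomes in the test. Smc2, one ATPase of condensin, was at 224, 236 and 241 CPM in shARF and 209.7, 203 and 195 CPM in shNT, without overlap (0.21, SE 0.038, adjusted p = 0.00338). Its partner Smc4 averaged 290.4 ± 4.01 CPM in shARF and 287 ± 8.88 CPM in shNT (0.019, adjusted p = 0.588).

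The condensin I subunit Ncapg was at 107, 107 and 106 CPM in shARF and 114, 113 and 111 CPM in shNT, groups that lie close but do not overlap, and fell by 5.07% (-0.075, SE 0.024, adjusted p = 0.0334). Its exons overlap Lcorl on the other strand (28.8 CPM at most, log2 fold change 0.22). Ncaph, which closes the condensin I ring, was at 63, 72.4 and 69.7 CPM in shARF and 95.3, 73.4 and 79.5 CPM in shNT, without overlap but not past the test (-0.28, adjusted p = 0.0567), but it was called lower by DESeq2 (-0.28), with library sizes alone (-0.37), with the 1 CPM filter (-0.29) and without shNT replicate 2 (-0.35). Top2a, the topoisomerase that untangles sister chromatids, was the most abundant of the 54 genes in CPM in shARF, and Mki67 in shNT. Top2a was at 704, 711 and 701 CPM in shARF and 693, 678 and 659.9 CPM in shNT, without overlap but not past the test (0.059, adjusted p = 0.0605). It was called higher without shNT replicate 1 (0.072) and after centring on its window (0.18). The call of Ncapg was lost without any 1 library except shNT replicate 3 (-0.072, -0.076 and -0.069 without shARF replicates 1, 2 and 3, -0.073 and -0.074 without shNT replicates 1 and 2), after centring (-0.045), by DESeq2 (-0.075) and with no filter on low counts (-0.071). Centring also ended the call of Smc2 and turned its sign (-0.10), while Smc4 was then called higher (0.10).

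Levels per length of annotated exon compare different genes only roughly. The length joins the exons of all annotated transcripts of a gene, so the order depends in part on the annotation. By this measure Top2a was highest in shARF, at 78.3 ± 0.596 CPM per kb in shARF and 75.1 ± 1.86 CPM per kb in shNT. Mki67 was at 62.1 ± 1.06 CPM per kb in shARF and 75.6 ± 4.19 CPM per kb in shNT, so that in shNT it and Top2a lie within their spread of each other. Cdc20, at 72.6 ± 1.49 CPM per kb in shARF and 71.8 ± 1.39 CPM per kb in shNT, was second in shARF, where Ccna2 and Mki67 followed. Ccna2 was at 64.5 ± 3 CPM per kb in shARF and 50.2 ± 2.94 CPM per kb in shNT. The lowest were Cdc25c, at 4.8 ± 0.233 CPM per kb in shARF and 5.84 ± 0.0826 CPM per kb in shNT, and Kif18a, at 4.99 ± 0.182 CPM per kb in shARF and 5 ± 0.0732 CPM per kb in shNT, which lie within their spread of each other in shARF. Cdc25b, Cdca8, Kif18a, Prc1 and Sgo2a also overlap genes on the other strand, with levels of at most 3.41 (beside Prc1) to 9.03 CPM (beside Sgo2a).

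A further 116 genes of mitosis outside the 54, in 6 lists, had 36 higher and 35 lower (61.2% called, background 56.4%), a median log2 fold change of 0.04 and a median absolute log2 fold change of 0.21. Of 16 other genes of the anaphase-promoting complex and its partners, 5 were higher and 6 lower. Its cullin subunit Anapc2 was at 113, 108 and 112 CPM in shARF and 174, 180.1 and 179 CPM in shNT, without overlap (-0.68, SE 0.028, adjusted p = 2.80e-06). Its subunit Cdc27 rose, with means of 229.8 ± 2.42 CPM in shARF and 181 ± 0.383 CPM in shNT (0.34, adjusted p = 1.25e-05). Of 15 other cohesin and condensin genes, 7 were higher and 2 lower. Ncapd3, a condensin II subunit, averaged 89.4 ± 0.905 CPM in shARF and 67.1 ± 0.259 CPM in shNT (0.41, adjusted p = 2.55e-05). Wapl, which releases cohesin from chromatin, averaged 192 ± 2.23 CPM in shARF and 144 ± 4.16 CPM in shNT (0.41, adjusted p = 2.73e-05). After centring on its window Wapl was not called (0.024).

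Of 29 other kinetochore and centromere genes, 6 were higher and 7 lower. Kntc1, a subunit of the RZZ complex, which brings dynein to kinetochores, averaged 87.1 ± 0.979 CPM in shARF and 61.2 ± 2.22 CPM in shNT (0.51, adjusted p = 3.59e-05). Zw10, of the same complex, averaged 54.1 ± 2.49 CPM in shARF and 40 ± 1.45 CPM in shNT (0.44, adjusted p = 3.19e-04). Of 29 other spindle genes, 7 were higher and 13 lower. Ckap2, a microtubule-binding protein of the spindle, was at 53.3, 56.2 and 56.9 CPM in shARF and 94.3, 92.6 and 87.4 CPM in shNT, a fall without overlap (-0.72, SE 0.044, adjusted p = 1.59e-05). Haus6, a subunit of augmin, which branches spindle microtubules, rose, with means of 97.4 ± 3.63 CPM in shARF and 63.5 ± 1.2 CPM in shNT (0.62, adjusted p = 1.61e-05).

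Of 12 other genes of mitotic entry, 5 were higher and 3 lower. Cdc25a, a further Cdk-activating phosphatase, rose, with means of 68.7 ± 1.55 CPM in shARF and 47.1 ± 1.2 CPM in shNT (0.54, adjusted p = 2.86e-05). Pbk, a mitotic kinase, was at 62.5, 59.1 and 61.1 CPM in shARF and 29.3, 33.2 and 31 CPM in shNT, without overlap (0.97, SE 0.055, adjusted p = 1.16e-05). The regulators themselves were the last list, in which 6 of 15 genes of the MuvB, DREAM and NF-Y complexes were higher and 4 lower. Mybl2, which encodes B-Myb, averaged 63.9 ± 1.62 CPM in shARF and 47.5 ± 0.335 CPM in shNT (0.43, adjusted p = 6.52e-05). Rbl2, which encodes p130, the pocket protein of DREAM that holds these genes down in resting cells, was at 28.7, 26.6 and 24.8 CPM in shARF and 58.6, 60.9 and 61.7 CPM in shNT. Its groups lay far apart, and Rbl2 fell to under 0.5 of the shNT level (-1.18, SE 0.06, adjusted p = 6.94e-06), a larger change than that of any of the 54 genes.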

How the data were processed

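RNA of 6 libraries, 3 shARF and 3 shNT, was analysed from 1 table of whole-number counts per gene deposited by the authors, with 54752 rows. Tools listed, without their roles, in the submitters' processing notes are StringTie 1.3.2, HISAT2 2.1.0, DESeq2 1.34.0, Picard 2.13.2, Trim Galore 0.4.1 and SAMtools 0.1.19, on build GRCm38. The counting tool, its use of strand and its annotation were not given in the sources used here. Should strand have been ignored, reads of overlapping genes are mixed. Per the labels' protocols, libraries came from a stranded kit with ribosomal RNA removal. A further 6 columns that match no sample here were not used. The index numbers of the shARF columns are not those of the titles, so columns were assigned by group name and replicate number.

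Symbols and coordinates came from GENCODE M21 (54723 IDs matched, 53861 with the same version; rows without a symbol held 0.0029% of counts). Promoters came from RefSeq (GRCm38.p6). The test was edgeR 4.0.16 (R 4.3.3) glmQLFit and glmQLFTest with TMM, filterByExpr (minimum count 10, minimum total 15), group as the sole term, two-sided, at 0.05 after Benjamini-Hochberg adjustment across 17128 genes. SE and intervals come from that fit (prior count 0.125). Depth was 40.3 to 47 M counts, so 1 CPM stands for about 40 reads or more. Libraries of 1 group differed beyond counting noise (chi-square per gene 13.9 to 18.6, and 136 to 144 between groups), so none was counted as a duplicate. The steps were tested on simulated data.

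The 54 genes, the other lists and the tests were chosen with earlier results of these data known. In each role, values in every library are given for the 3 genes with the smallest p and the most abundant. Genes given beyond that were chosen after their values were seen. They are Cdk1, Ccnb1, Pttg1, Spc25 and Ncaph, for a single library that stands off or for closeness to 0, and Top2a, the most abundant in shARF. From each other list, up to 2 genes with the smallest p are named. Alternatives were DESeq2 1.42.0, RLE factors, library sizes alone, no filter, at least 1 CPM in 3 libraries, limma-voom (limma 3.58.1), a block on replicate number, fold changes centred on the 10 Mb window (at least 15 tested genes, otherwise the chromosome), and each library left out in turn.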

Additional observations from a re-analysis of the deposited data

How the results depend on the processing

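Among the 54 genes, 31 were called, and 24 to 35 over the 14 alternatives. Scaling by library sizes alone gave 6 higher and 29 lower and a median log2 fold change of -0.134. That median was -0.0537 when genes needed 1 CPM in 3 libraries, and between -0.0447 and -0.0241 when 1 library was left out, where 10 to 14 genes were higher and 13 to 16 lower. No pairing by replicate number was seen, as the deviations of same-numbered libraries from their group means correlated at -0.13, -0.05 and -0.03. Deviations within groups of 3 libraries are bound to each other, so these correlations cannot exclude a pairing. With the replicate number as a block, 12 genes were higher and 14 lower (26 called), without Ccnb2, Aurkb, Spc24, Kif11 and Ncapg. The share of all genes called is given only for the main test, library sizes alone and centring. Counts in the other settings thus cannot be told apart from a change in calls over all genes. Signs turned mostly for genes near 0. Library sizes alone turned Cdc25b (-0.0395), Bub1 (-0.0831), Cdc20 (-0.0738), Kif11 (-0.00136), Prc1 (-0.0724), Kif20b (-0.0755), Top2a (-0.031) and Smc4 (-0.0707), and centring on the window Cdk1 (0.00474), Birc5 (0.066), Cdc20 (-0.139), Nuf2 (0.0697), Tpx2 (0.0445), Kif11 (-0.221), Kif4 (0.0427), Kif20b (-0.295) and Smc2 (-0.0993). Cdk1 was above 0 with DESeq2 (6.05e-05), no filter (0.00357) and limma-voom (0.000427), Kif18a with no filter (0.000723), and Bub1 was below 0 with the 1 CPM filter (-0.00271). Leaving out 1 library at a time, the lowest and highest values had unlike signs for Cdk1 (-0.0161 to 0.0145), Birc5 (-0.0279 to 0.0107), Bub1 (-0.0336 to 0.0343), Cdc20 (-0.00465 to 0.0348), Spc25 (-0.392 to 0.0271), Tpx2 (-0.0332 to 0.00168), Kif18a (-0.0218 to 0.0284), Prc1 (-0.0195 to 0.037), Kif20b (-0.0294 to 0.0344) and Racgap1 (-0.0577 to 0.00433). The cause was not tested. Counting depth is high for all 54 genes, with means of 19.6 CPM or more. Strand, shared reads and the unstated origin of the replicates limit the values.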
